A study of Homo sapiens with 6 samples.

Results

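Collagen genes were the 44 gene rows, of 38557 in all, whose symbol consists of COL, a number, A and a number. They were chosen by name alone and placed in 3 classes by collagen type: 11 fibrillar genes (types I, II, III, V, XI, XXIV and XXVII), 8 basement membrane genes (types IV, XV and XVIII) and 25 others. RNA sequencing gave transcript counts in 6 libraries of cardiomyocytes made from the induced pluripotent stem cell line WTC11, an established human line, with the label WT. Cells in 3 libraries had been kept in RPMI with the supplement B27, and in the other 3 in DMEM with fatty acids, with replicates numbered 1 to 3 in both media. All 6 libraries thus share the line and the label WT, and the labels give no age of the cells, time in the medium or composition of either medium. The labels call the replicates biological but do not say what they shared, and all came from 1 cell line.

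Collagens are secreted as trimers of alpha chains, each gene encoding 1 chain. Fibrillar collagens form the tension-bearing cables of the interstitial matrix, which in the heart is made mainly of types I and III and is laid down largely by fibroblasts. Type IV collagen builds the sheet-like network of basement membranes, which surround each cardiomyocyte, and the remaining types form beaded filaments, short-chain networks, coats on other fibrils (the fibril-associated collagens, FACITs) or transmembrane proteins.

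Promoter sequences are shown first for the pairs of type IV genes, which lie head to head, so that both genes of a pair are read outward from a shared stretch, and whose levels are compared below. In RefSeq (build GRCh38.p14) the annotated starts of COL4A1 and COL4A2 were 127 bases apart on chromosome 13, those of COL4A4 and COL4A3 419 bases apart on chromosome 2, and those of COL4A6 and COL4A5 380 bases apart on chromosome X. The sequences are given 5′ to 3′ on the plus strand, up to the base before the start of the second gene of each pair. They cover chr13:110307158-110307283, chr2:227164374-227164623 and chrX:108439588-108439837, the first being the whole stretch between the starts. Capitals mark matches on either strand to GGGCGG (the GC box), CCAAT or TATAAA.
COL4A1 and COL4A2: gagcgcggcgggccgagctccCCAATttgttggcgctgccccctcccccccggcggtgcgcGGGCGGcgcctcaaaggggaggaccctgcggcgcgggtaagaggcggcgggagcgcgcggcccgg
COL4A4 and COL4A3: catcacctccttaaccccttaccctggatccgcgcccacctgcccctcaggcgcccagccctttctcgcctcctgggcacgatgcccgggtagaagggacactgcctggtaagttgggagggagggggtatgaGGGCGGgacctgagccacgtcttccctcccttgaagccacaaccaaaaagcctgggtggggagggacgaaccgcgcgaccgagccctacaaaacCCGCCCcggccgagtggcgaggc
COL4A6 and COL4A5: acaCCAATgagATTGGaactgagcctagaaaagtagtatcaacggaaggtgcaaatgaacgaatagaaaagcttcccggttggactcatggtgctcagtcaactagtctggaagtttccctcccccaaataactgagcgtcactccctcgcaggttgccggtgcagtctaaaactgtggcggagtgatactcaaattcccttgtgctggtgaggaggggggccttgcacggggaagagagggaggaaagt

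Of the 6 collagens called lower in DMEM plus fatty acids below, COL5A1, COL11A1 and COL12A1 had a window in the RefSeq promoter table. The 250 bases before a RefSeq start of each are given in the direction of transcription with the same marks. They lie at chr9:134641553-134641802 (plus strand), chr1:103108523-103108772 (minus) and chr6:75206054-75206303 (minus). By the GENCODE 29 locus (chr1:102876467-103108872) the COL11A1 stretch lies wholly within the gene. The COL5A1 stretch runs past the GENCODE start of that gene at 134641774.
COL5A1: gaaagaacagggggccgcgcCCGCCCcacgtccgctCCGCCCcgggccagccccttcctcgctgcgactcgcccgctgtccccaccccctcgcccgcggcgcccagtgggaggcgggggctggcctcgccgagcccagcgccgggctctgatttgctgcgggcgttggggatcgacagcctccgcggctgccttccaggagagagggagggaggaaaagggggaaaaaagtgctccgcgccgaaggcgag
COL11A1: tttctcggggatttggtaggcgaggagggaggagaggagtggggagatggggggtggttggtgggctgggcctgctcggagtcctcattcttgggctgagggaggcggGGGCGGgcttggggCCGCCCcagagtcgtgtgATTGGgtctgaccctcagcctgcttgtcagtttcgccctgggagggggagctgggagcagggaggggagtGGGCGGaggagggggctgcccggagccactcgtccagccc
COL12A1: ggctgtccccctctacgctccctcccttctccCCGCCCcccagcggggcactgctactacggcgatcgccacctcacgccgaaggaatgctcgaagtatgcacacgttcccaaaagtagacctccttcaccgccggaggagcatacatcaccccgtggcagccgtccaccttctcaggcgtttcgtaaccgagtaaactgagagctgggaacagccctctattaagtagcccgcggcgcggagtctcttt

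GGGCGG was present in 5 of these 6 stretches, all but that of COL4A6 and COL4A5. Over the 250 bases before each start it was found in 54.5% of 44 windows, from 32 collagen genes, and in 42.6% of 35097 windows in the whole table. CCAAT was found in 27.3% of collagen windows and 32.0% of all windows, and TATAAA in 18.2% and 10.7%. These matches describe letters only.

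Before the genes are described, 1 property of the libraries is given because it touches many of them. Of the 36 collagens that passed the filter on low counts, 30 had their highest level within RPMI plus B27 in replicate 1. For all tested genes the number highest in this library was not counted. The same library had the highest summed level of 12 stromal markers (fibroblast genes, collagens not included), 7866.9 CPM (counts scaled to a common library size of 1e+06, with TMM scaling between libraries) against 3332.9 and 3267.6 in replicates 2 and 3. Log2 fold changes of collagens that move by over 1.5 times without it are therefore also given without it. Libraries held 23232324 to 31035389 gene counts, and all 15 pairs of libraries differed by more than sampling noise (chi-square per degree of freedom at least 31.5).

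Collagens together took 1.96%, 1.44% and 1.45% of the gene counts in RPMI plus B27 (replicates 1 to 3) and 0.749%, 1.01% and 1.07% in DMEM plus fatty acids. In scaled counts their sum was 16796.3 ± 3293.4 CPM against 9072.2 ± 1370.7 CPM (SD, n = 3 each), and every library in DMEM plus fatty acids lay below every library in RPMI plus B27. The fibrillar sum was 10994.4, 7698.5 and 7046.5 CPM in RPMI plus B27 and 2712.1, 4072.1 and 3870.5 CPM in DMEM plus fatty acids, a ratio of means of 2.42. For the basement membrane class the sums were 8053.8, 6384.4 and 7424.7 CPM against 4100.1, 5246.5 and 5365.2 CPM, a ratio of 1.49. The other collagens summed to 1545.4, 637 and 604 CPM against 677, 551 and 622 CPM, so that the media overlapped. Fibrillar genes held 46.7% to 53.4% of all collagen counts in RPMI plus B27 and 36.2% to 41.3% in DMEM plus fatty acids, while basement membrane genes held 39.1% to 49.3% and 53.2% to 54.7%. No p is given for these sums, which are scores over the members.

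**Figure D1:**
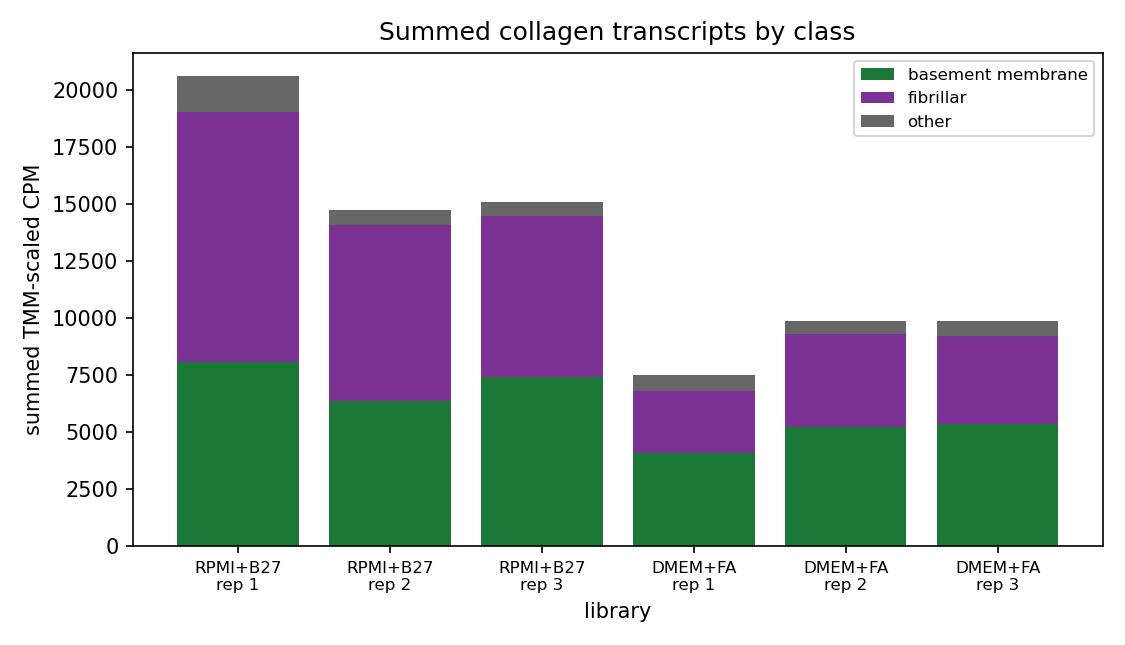
Summed TMM-scaled CPM of all collagen genes in each of the 6 libraries, stacked by class. Fibrillar sums are 7046.5 to 10994.4 CPM in the 3 RPMI plus B27 libraries and 2712.1 to 4072.1 CPM in the 3 DMEM plus fatty acids libraries, with a smaller gap for the basement membrane class.

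The media differed in both base and supplements, whose parts in any difference cannot be told apart. In the comparison of media, 6 collagens fell in DMEM plus fatty acids and 0 rose (edgeR quasi-likelihood test, Benjamini-Hochberg adjusted p under 0.05 over all 16107 genes tested). They were the fibrillar genes COL1A1, COL3A1, COL5A1, COL5A2 and COL11A1, and COL12A1 of the other class. The 6 make up 16.7% of the 36 tested collagens, and 1.07% of all tested genes were called lower and 0.292% higher. By class, 5 of 10 tested fibrillar genes, 0 of 8 basement membrane genes and 1 of 18 others passed. At an unadjusted p under 0.05 there were 6, 5 and 8, all lower, where 9.98% of all genes were lower and 7.7% higher. The DESeq2 Wald test, which called 5.13% of all genes lower and 2.4% higher, called 16 collagens lower, among them the basement membrane genes COL4A1, COL4A3, COL4A4 and COL18A1, and 0 higher. The median log2 fold change, which is negative for genes lower in DMEM plus fatty acids, was -1.01 over the 36 collagens and 0.0090 over all tested genes. By class it was -1.33 for fibrillar, -0.68 for basement membrane and -1.01 for other collagens. Negative values were found for 30 of the 36, against 7888 of all 16107 genes.

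Libraries of the media did not overlap for 19 of the 36 tested collagens, all lower in DMEM plus fatty acids. The same held in that direction for 12.8% of all tested genes, and for 12.8% in the other direction, where 0 tested collagens lay. The 8 rows under the filter, with at most 41 counts in any library, were COL5A3 of the fibrillar class and COL6A5, COL8A2, COL10A1, COL17A1, COL20A1, COL22A1 and COL28A1. COL22A1 had 0 counts in all 6 libraries, which allows up to 0.0888 to 0.129 CPM depending on the library, and COL6A5 had 1 count in 1 library. COL10A1, the collagen of hypertrophic cartilage, lay at 0.301 to 0.387 CPM in DMEM plus fatty acids and 0.0745 to 0.170 CPM in RPMI plus B27, from at most 13 counts, and was higher at an unadjusted p under 0.05 when the filter was dropped.

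The replicate numbers were taken to pair the libraries, although no label states what a number stands for (the check is given with the processing). With the replicate number as a block, 11 collagens passed and all were lower, where 3.42% of all genes were called lower and 1.36% higher. They included the 6 named above and COL4A4, COL6A3, COL8A1, COL11A2 and COL21A1. Without RPMI plus B27 replicate 1, 2 or 3 the fit without the block called 3, 1 and 4 collagens, of 30, 4 and 131 genes in all. Without DMEM plus fatty acids replicate 1, 2 or 3 it called 0 collagens, of 11, 12 and 3 genes in all. COL3A1 and COL5A1 were called in none of these 6 fits. In these last fits 16 to 19 collagens had an unadjusted p under 0.05, of which 1 in each fit was higher (COL6A6, COL10A1 and COL19A1). The median over the tested collagens was -0.52 without RPMI plus B27 replicate 1, and in that fit COL6A1, COL7A1, COL10A1 and COL24A1 were higher at an unadjusted p under 0.05.

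**Figure D2:**
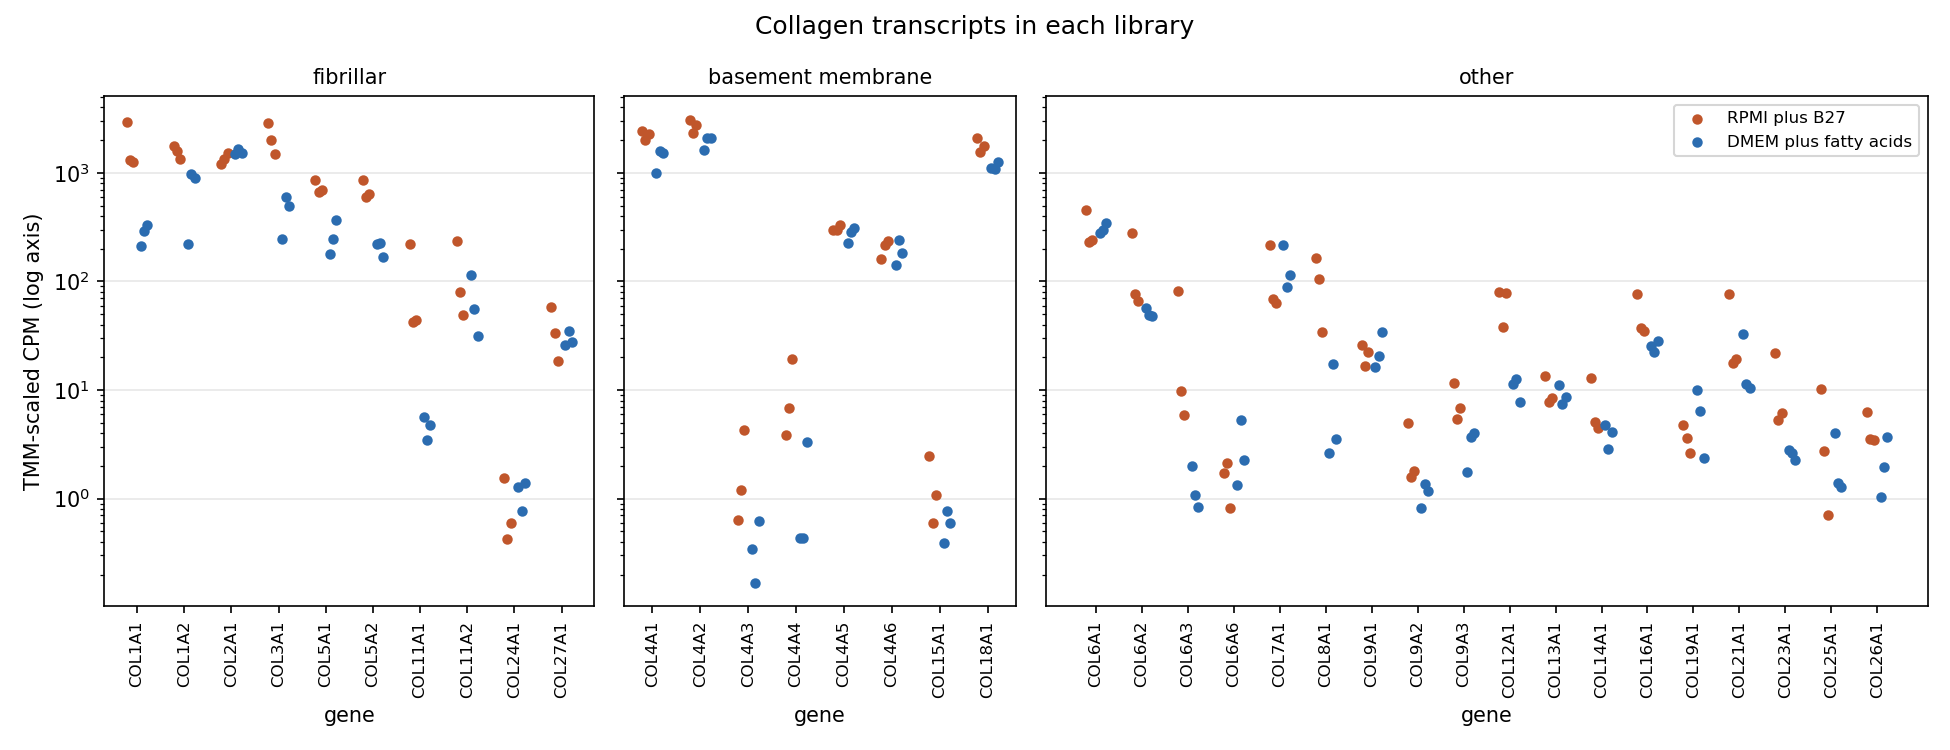
TMM-scaled CPM (log axis) of the 36 tested collagens in each library, in 3 panels by class, with 1 point per library and colours for the media. COL1A1, COL3A1, COL5A1, COL5A2, COL11A1 and COL12A1 separate the media widely, while COL2A1, COL4A5, COL4A6 and COL6A1 overlap.

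**Figure D3:**
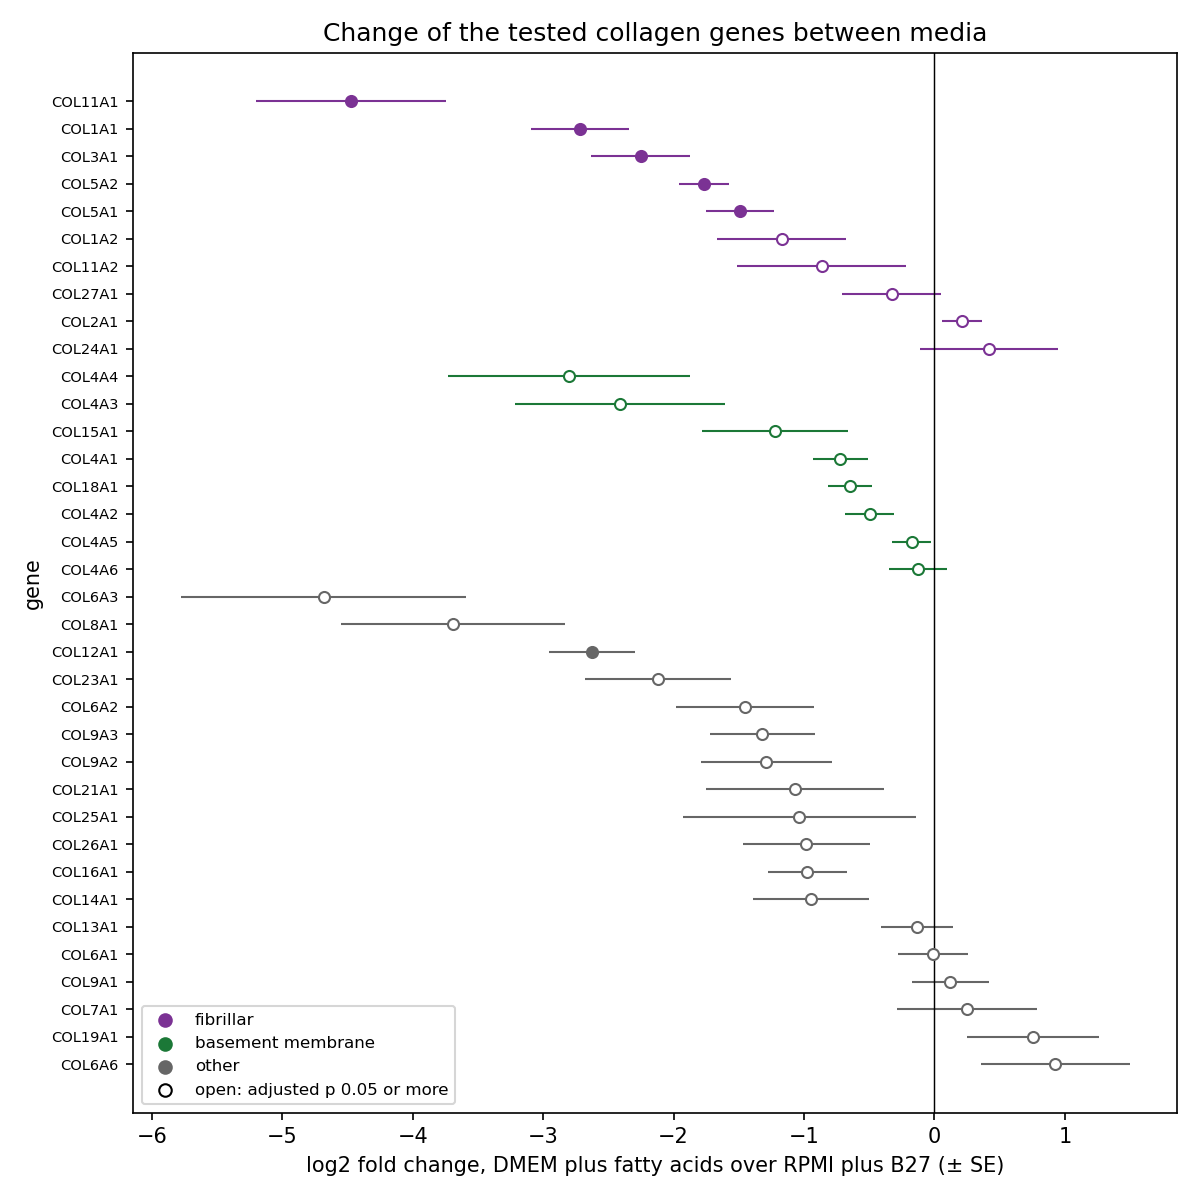
log2 fold change between media with its SE for each tested collagen, ordered within class, with filled points for an adjusted p under 0.05. The filled points are 5 fibrillar genes and COL12A1, and values run from -4.68 for COL6A3 to 0.93 for COL6A6.

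COL1A1 (chr17:50183289-50201632, minus strand, GENCODE 29 on GRCh38), the main chain of type I collagen, had 2911.0, 1321.8 and 1250.0 CPM in RPMI plus B27 and 212, 289 and 333 CPM in DMEM plus fatty acids. The lowest RPMI plus B27 library was well above the highest DMEM plus fatty acids library, and the log2 fold change was -2.72 ± 0.38 (SE, adjusted p 0.0338). COL1A2 (chr7:94394561-94431232, plus strand) encodes the other chain of the usual type I trimer. It had 1784.9, 1598.2 and 1334.5 CPM against 219, 974 and 901 CPM, and its log2 fold change of -1.17 ± 0.49 did not pass (adjusted p 0.276, and 0.168 with the block). Leaving out DMEM plus fatty acids replicate 1 gave -0.75. Within DMEM plus fatty acids, replicate 1 was thus far below the other 2 for COL1A2 but not for COL1A1.

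That difference shows in the ratio of COL1A2 to COL1A1 counts within a library, in which the lengths of the genes cancel between media. It was 0.613, 1.21 and 1.07 in RPMI plus B27 and 1.03, 3.37 and 2.70 in DMEM plus fatty acids. The ratio was higher in DMEM plus fatty acids for all 3 replicate numbers, with a difference of 1.19 on the log2 scale. The media overlapped through DMEM plus fatty acids replicate 1, and an exact two-sided permutation test over the libraries gave p = 0.3 (0.36 adjusted over 12 ratios, where 0.1 is the smallest p that 3 against 3 libraries allow). An exact sign-flip test over the 3 pairs gave 0.25, the smallest p that 3 pairs allow.

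COL3A1 (chr2:188974320-189012746, plus strand), the sole chain of type III collagen, had 2877.6, 2025.0 and 1500.8 CPM against 245, 601 and 498 CPM, with no overlap. Its log2 fold change was -2.25 ± 0.38 (adjusted p 0.0452). Type V collagen, which co-assembles with type I and limits fibril width, fell in both of its abundant chains. COL5A1 had 855, 669 and 701 CPM against 181, 247 and 366 CPM (-1.49 ± 0.26, adjusted p 0.0486). COL5A2, which lies beside COL3A1 on chromosome 2 (chr2:189031896-189225312, minus strand), had 852, 598 and 640 CPM against 222, 224 and 169 CPM (-1.77 ± 0.19, adjusted p 0.0242, the smallest of the collagens). The ratio of COL5A2 to COL5A1 was 0.894 to 0.996 in RPMI plus B27 and 1.23, 0.907 and 0.462 in DMEM plus fatty acids (exact permutation p = 0.8, n = 3 each, 0.8 adjusted).

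COL11A1 (chr1:102876467-103108872, minus strand) encodes a chain of type XI collagen, a relative of type V best known from cartilage. It had 221, 42.7 and 44.0 CPM against 5.59, 3.48 and 4.80 CPM, and the log2 fold change of -4.47 ± 0.73 (adjusted p 0.0423) was the largest among the called collagens. It rested in part on RPMI plus B27 replicate 1, without which it was -3.23 (adjusted p 0.0175). Over 12 alternatives its adjusted p ran from 9.1e-12 to 0.147. Relative to COL5A1 the count ratio was 0.258, 0.0638 and 0.0628 in RPMI plus B27 and 0.0311, 0.0141 and 0.0132 in DMEM plus fatty acids, again without overlap (exact permutation p = 0.1, n = 3 each, 0.133 adjusted).

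COL11A2, another type XI chain, varied more between libraries. Its levels were 237, 79.9 and 49.3 CPM against 115, 55.3 and 31.5 CPM, so that the media overlapped while each replicate number was lower in DMEM plus fatty acids. It was called only with the block (-0.86 ± 0.65, adjusted p 0.534, against -0.74 ± 0.13 and 0.0364 with it), and without RPMI plus B27 replicate 1 the unblocked value was 0.055. COL24A1 lay at 0.425 to 1.54 CPM over the 6 libraries and COL27A1 at 18.5 to 58.6 CPM, and both overlapped between media (0.42 ± 0.53 and -0.33 ± 0.38, or 1.16 and 0.17 without RPMI plus B27 replicate 1).

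COL2A1 (chr12:47972965-48004554, minus strand), the type II chain best known as the main collagen of cartilage, was among the most abundant collagens in all 6 libraries. It had 1195.2, 1328.3 and 1507.8 CPM in RPMI plus B27 and 1486.5, 1642.8 and 1538.9 CPM in DMEM plus fatty acids. The media overlapped, and the log2 fold change was 0.21 ± 0.15 (adjusted p 0.513, and 0.424 with the block), although COL2A1 was the only tested collagen that was higher in DMEM plus fatty acids for all 3 replicate numbers. COL2A1 had a log2 fold change of 0.13 without RPMI plus B27 replicate 1. Its share of all collagen counts was 5.80%, 9.02% and 10.002% in RPMI plus B27 and 19.8%, 16.6% and 15.6% in DMEM plus fatty acids. Without COL2A1, a choice made after its values were seen, the fibrillar sum was 9799, 6370.2 and 5538.6 CPM against 1225.6, 2429.2 and 2331.6 CPM.

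Other cartilage genes were not abundant beside it. Of 6 chondrocyte markers, COMP (at most 0.0753 CPM) and MATN1 (at most 0.452 CPM) were near the counting limit in every library. ACAN, the cartilage proteoglycan aggrecan, had 0.151 to 1.96 CPM, and SOX9, the transcription factor of chondrocytes, had 5.95 to 19.6 CPM. HAPLN1, a link protein of cartilage that the developing heart also makes, had 123, 201 and 72.0 CPM against 8.26, 37.5 and 19.3 CPM, where the whole list summed to 98.3 to 217 CPM and 18.1 to 47.7 CPM. SOX9 (-0.97) and HAPLN1 (-2.70) passed with the block only (adjusted p 0.0363 and 0.0236, against 0.126 and 0.0832 without it). With the block 3.42% of all tested genes were called lower. MATN3 had 4.10, 3.19 and 5.96 CPM against 1.59, 2.24 and 2.07 CPM and did not pass (-1.16 ± 0.32, adjusted p 0.126, 0.0889 with the block). Of the 4 tested markers 3 were lower without overlap, as were 12.8% of all tested genes, and ACAN overlapped. Type IX collagen, which decorates type II fibrils, had 16.2 to 34.0 CPM of COL9A1 with overlapping media (0.12 ± 0.30, adjusted p 0.866). Without RPMI plus B27 replicate 1, COL9A1 was at 0.27. COL9A2 (-1.29 ± 0.50, and -0.57 without RPMI plus B27 replicate 1) and COL9A3 (-1.32 ± 0.41) did not pass (adjusted p 0.244 and 0.164), though neither overlapped between media.

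Levels of different genes can be compared only per length, here CPM per kilobase of the principal transcript in GENCODE 29, which may not be the annotation behind the counts. On that scale the mean levels in RPMI plus B27 ran from COL4A2 (419) through COL3A1 (385), COL4A1 (338), COL18A1 (304), COL1A2 (291) and COL1A1 (272) to COL2A1 (265). Neighbours in this order overlapped in their library ranges, as in COL1A1 (186 to 433) and COL2A1 (236 to 297). In DMEM plus fatty acids the order was COL2A1 (307), COL4A2 (298), COL4A1 (205), COL18A1 (194), COL1A2 (129), COL3A1 (80.8), COL6A1 (72.1), COL4A5 (42.5) and COL1A1 (41.3), and the first 2 overlapped (293 to 324 and 252 to 322).

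COL4A1 and COL4A2 encode the chains of the common type IV trimer and are the pair whose RefSeq starts flank the 126 bases printed first. COL4A1 (chr13:110148963-110307233, minus strand) had 2413.8, 2006.2 and 2297.8 CPM in RPMI plus B27 and 987, 1574.5 and 1516.4 CPM in DMEM plus fatty acids. COL4A2 (chr13:110305812-110513209, plus strand) had 3087.8, 2307.3 and 2776.1 CPM against 1638.1, 2071.3 and 2089.2 CPM. Neither gene overlapped between media, and neither passed, with log2 fold changes of -0.72 ± 0.21 (adjusted p 0.155, 0.116 with the block) and -0.50 ± 0.19 (adjusted p 0.232, 0.212 with the block). The GENCODE loci overlap on opposite strands, and since the strand setting of the counting is not given in the sources used here, reads in the shared stretch are uncertain.

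The count ratio of the pair was somewhat higher in DMEM plus fatty acids. COL4A2 to COL4A1 stood at 1.28, 1.15 and 1.21 in RPMI plus B27 and 1.66, 1.32 and 1.38 in DMEM plus fatty acids, a difference of 0.25 on the log2 scale without overlap (exact permutation p = 0.1, n = 3 each, 0.133 adjusted). COL4A2 was the collagen with the most counts in each of the 6 libraries, with a mean share of collagen counts of 16.4% in RPMI plus B27 against 21.4% in DMEM plus fatty acids.

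COL4A3 and COL4A4, whose chains join COL4A5 in the type IV trimer known from kidney and inner ear, were the least abundant type IV genes. COL4A4 (chr2:227002711-227164453, minus strand) had 3.88, 6.80 and 19.2 CPM in RPMI plus B27 and 0.430, 0.434 and 3.32 CPM in DMEM plus fatty acids, highest in replicate 3 of both media. Its log2 fold change was -2.80 ± 0.93 (adjusted p 0.184), and it passed with the block (-3.11 ± 0.33, adjusted p 0.0134) and by DESeq2 (adjusted p 0.0107). Without replicate 3 of RPMI plus B27 it was -1.90, and without replicate 3 of DMEM plus fatty acids -4.51. COL4A3 had 0.640, 1.19 and 4.32 CPM against 0.344, 0.167 and 0.622 CPM, also highest in replicate 3 of both media (-2.41 ± 0.80, adjusted p 0.186, and 0.0565 with the block), and was -1.24 without RPMI plus B27 replicate 3. COL4A4 to COL4A3, a count ratio that was not tested, was 6.06, 5.71 and 4.44 in RPMI plus B27. In DMEM plus fatty acids it was 1.25, 2.60 and 5.33, from as few as 5 COL4A3 counts, so that the media overlapped.

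On chromosome X, COL4A5 lay at 297, 297 and 332 CPM against 225, 283 and 312 CPM and COL4A6 at 162, 215 and 236 CPM against 140, 240 and 181 CPM. Both pairs of groups overlapped (-0.17 ± 0.15, adjusted p 0.588, and -0.12 ± 0.23, adjusted p 0.811). The log2 fold change of COL4A6 was -0.27 without RPMI plus B27 replicate 1. Relative to COL4A1, COL4A5 stood at 0.123 to 0.148 in RPMI plus B27 and 0.180 to 0.228 in DMEM plus fatty acids, without overlap (exact permutation p = 0.1, n = 3 each, 0.133 adjusted). The count ratio of COL4A6 to COL4A5, which was not tested, overlapped between media. It was 0.547, 0.723 and 0.710 in RPMI plus B27 and 0.624, 0.849 and 0.581 in DMEM plus fatty acids.

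COL18A1 (chr21:45405137-45513720, plus strand), the source of the fragment endostatin, had 2086.5, 1550.5 and 1759.0 CPM against 1108.6, 1075.6 and 1262.1 CPM. Its libraries did not overlap, and its log2 fold change of -0.65 ± 0.17 did not pass (adjusted p 0.116, 0.0857 with the block). COL15A1, its closest relative, lay at 0.595 to 2.45 CPM and 0.387 to 0.769 CPM, with overlap (-1.22 ± 0.56, adjusted p 0.311, and -0.52 without RPMI plus B27 replicate 1).

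The fibrillar sum over the basement membrane sum was 1.37, 1.21 and 0.949 in RPMI plus B27 and 0.661, 0.776 and 0.721 in DMEM plus fatty acids. Ratios of single genes to COL1A1 differed more, COL1A1 having the largest fold change of the abundant fibrillar genes. COL4A1 to COL1A1 was 0.829, 1.52 and 1.84 in RPMI plus B27 and 4.67, 5.45 and 4.55 in DMEM plus fatty acids, a difference of 1.88 on the log2 scale. COL18A1 to COL1A1 was 0.717, 1.17 and 1.41 against 5.24, 3.72 and 3.79, a difference of 1.99. COL2A1, the fibrillar gene with the highest level per length in DMEM plus fatty acids, had a log2 fold change of 0.21 where COL1A1 had -2.72. Both ratios gave p = 0.1 by the exact permutation test (n = 3 each, 0.133 adjusted), the smallest value the design allows, so the test could not pass a threshold of 0.05.

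**Figure D4:**
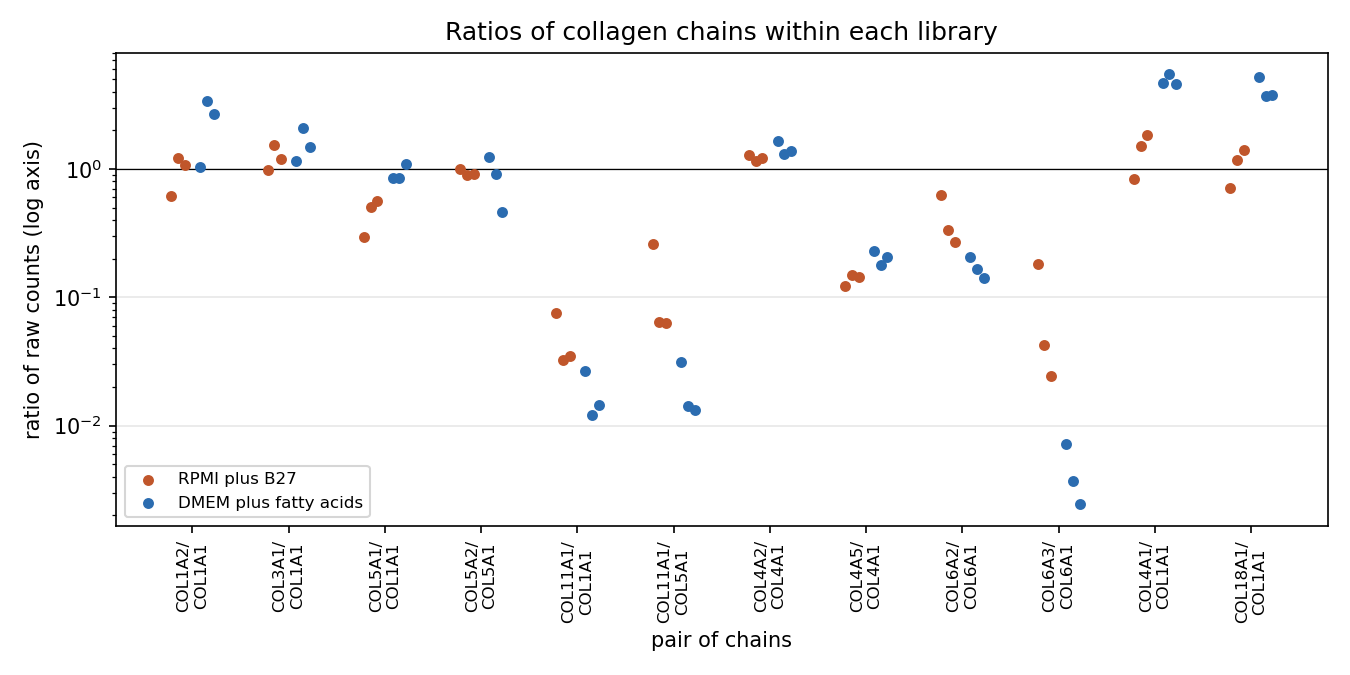
Ratio of raw counts of 2 collagen genes (log axis) within each library for 12 pairs, with 1 point per library and colours for the media. COL4A1 and COL18A1 relative to COL1A1 are higher in all DMEM plus fatty acids libraries, COL6A3 relative to COL6A1 is lower in all of them, and COL1A2 relative to COL1A1 overlaps.

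Type VI collagen forms beaded filaments from 3 different chains, and the differences of its genes were unequal. COL6A1 (chr21:45981737-46005050, plus strand) had 451, 229 and 243 CPM in RPMI plus B27 and 277, 295 and 344 CPM in DMEM plus fatty acids. Its log2 fold change of -0.01 ± 0.27 (adjusted p 0.990) was positive with the block (0.060), under scaling by total counts (0.11) and in 4 further settings. COL6A2, which lies on the same arm of chromosome 21, had 280, 76.4 and 65.9 CPM against 56.9, 48.9 and 48.5 CPM (-1.45 ± 0.53, adjusted p 0.216), and -0.47 without RPMI plus B27 replicate 1. COL6A3 (chr2:237324003-237414375, minus strand) had 82.5, 9.73 and 5.89 CPM against 1.98, 1.07 and 0.829 CPM. Its log2 fold change was -4.68 ± 1.09 (adjusted p 0.0930), and it passed with the block (-3.91 ± 0.53, adjusted p 0.0223), by DESeq2 and with no filter. It was -2.61 without RPMI plus B27 replicate 1.

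Relative to COL6A1, COL6A3 stood at 0.183, 0.0427 and 0.0243 in RPMI plus B27 and 0.00722, 0.00368 and 0.00245 in DMEM plus fatty acids. COL6A2 stood at 0.622, 0.334 and 0.272 against 0.205, 0.166 and 0.141. Neither ratio overlapped between media (exact permutation p = 0.1 each, n = 3 each, 0.133 adjusted). COL6A6, with 0.820 to 5.28 CPM, had the highest log2 fold change of the tested collagens, 0.93 ± 0.57, and did not pass (adjusted p 0.441, and 0.21 on the log2 scale without DMEM plus fatty acids replicate 2).

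Among collagens that coat fibrils, COL12A1 (chr6:75084326-75206051, minus strand), a FACIT of tendon and other dense tissue, had 80.0, 38.0 and 78.3 CPM against 11.4, 12.6 and 7.79 CPM and fell by 2.63 on the log2 scale (SE 0.33, adjusted p 0.0292). COL21A1 had 76.9, 17.7 and 19.3 CPM against 32.8, 11.3 and 10.4 CPM, highest in replicate 1 of both media. It was called only with the block (-1.07 ± 0.68, adjusted p 0.458, against -0.93 ± 0.15 and 0.0298 with it), and the unblocked value was -0.03 without RPMI plus B27 replicate 1. COL14A1 (-0.95 ± 0.45), COL16A1 (-0.97 ± 0.31) and COL19A1 (0.76 ± 0.51) had adjusted p values of 0.322, 0.168 and 0.478. Without RPMI plus B27 replicate 1, COL14A1 was at -0.30 and COL16A1 at -0.52.

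COL8A1 (chr3:99638475-99799226, plus strand), a short-chain network collagen of vessel walls, had 165, 106 and 34.1 CPM against 2.62, 17.4 and 3.52 CPM. Its log2 fold change was -3.69 ± 0.86 (adjusted p 0.0928), and it passed with the block (-3.80 ± 0.64, adjusted p 0.0321), by DESeq2 and with no filter. Of the transmembrane collagens, COL23A1 lay at 5.31 to 21.9 CPM against 2.25 to 2.80 CPM (-2.12 ± 0.56, adjusted p 0.120, and -1.17 without RPMI plus B27 replicate 1), while COL13A1 (-0.13 ± 0.27) and COL25A1 (-1.03 ± 0.89) overlapped. Without that library COL13A1 had 0.15 and COL25A1 0.36. COL7A1, which forms the anchoring fibrils of epithelia, had 218, 68.6 and 63.1 CPM against 214, 88.4 and 114 CPM, again highest in replicate 1 of both media (0.25 ± 0.53, adjusted p 0.847, and 1.07 without RPMI plus B27 replicate 1). COL26A1 lay at 1.03 to 6.32 CPM over all libraries and did not pass (-0.98 ± 0.49, adjusted p 0.348, and -0.64 without RPMI plus B27 replicate 1).

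Collagen chains are modified and folded in the endoplasmic reticulum, exported, trimmed and cross-linked. Of 46 genes listed for these steps and for collagen receptors, 44 were tested, and 7 fell and 0 rose (MIA3 and TMEM38B were higher at an unadjusted p under 0.05, and 0 rose by DESeq2). With the block 13 fell and 0 rose. Of all tested genes, 1.07% were called lower and 0.292% higher, or 3.42% and 1.36% with the block. The median log2 fold change of the 44 genes was -0.38. Without RPMI plus B27 replicate 1 FKBP14 alone was called, and without replicate 3 FKBP14, ITGA11, LOX and LOXL2. The count was 0 without RPMI plus B27 replicate 2 and without any single DMEM plus fatty acids replicate, with 18 to 21 genes then at an unadjusted p under 0.05. With all libraries 22 of the 44 were at that p, 2 of them higher, where 9.98% of all genes were lower and 7.7% higher.

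Cross-linking enzymes held 3 of the 7. LOX, the founding lysyl oxidase, had 126, 65.0 and 24.3 CPM against 4.73, 8.05 and 3.46 CPM (-3.72 ± 0.62, adjusted p 0.0442, and -3.04 and 0.0838 without RPMI plus B27 replicate 1). LOXL1 (-1.13 ± 0.19) and LOXL2 (-1.45 ± 0.25) both had an adjusted p of 0.0471, and LOXL4 overlapped between media (0.20 ± 0.46). Of the modifying enzymes, FKBP14, a prolyl isomerase, had 51.7, 38.2 and 33.4 CPM against 12.4, 8.86 and 9.95 CPM (-1.98 ± 0.22, adjusted p 0.0242). PLOD1, a lysyl hydroxylase (-1.07 ± 0.17, adjusted p 0.0402), and P4HA2, a prolyl hydroxylase subunit (-1.08 ± 0.19, adjusted p 0.0480), also fell. The 4 genes with the next smallest p did not pass, but were called with the block, by DESeq2 and with no filter. They were P3H3 (-2.05 ± 0.39, adjusted p 0.0583) and P4HA1 (-1.52 ± 0.29, 0.0593), which encode proteins of prolyl hydroxylase families, and the propeptide-cleaving proteases ADAMTS14 (-1.98 ± 0.38, 0.0609) and TLL1 (-2.65 ± 0.55, 0.0722). SERPINH1, the collagen chaperone HSP47, had 478, 528 and 540 CPM against 362, 501 and 509 CPM (-0.17 ± 0.16, adjusted p 0.627). Among receptors ITGA11, the integrin chain of fibroblasts that binds fibrillar collagen, fell from 56.3, 36.4 and 26.9 CPM to 3.57, 7.39 and 5.24 CPM (-2.88 ± 0.36, adjusted p 0.0292), while ITGB1 had -0.28 ± 0.13 (adjusted p 0.327).

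**Figure D5:**
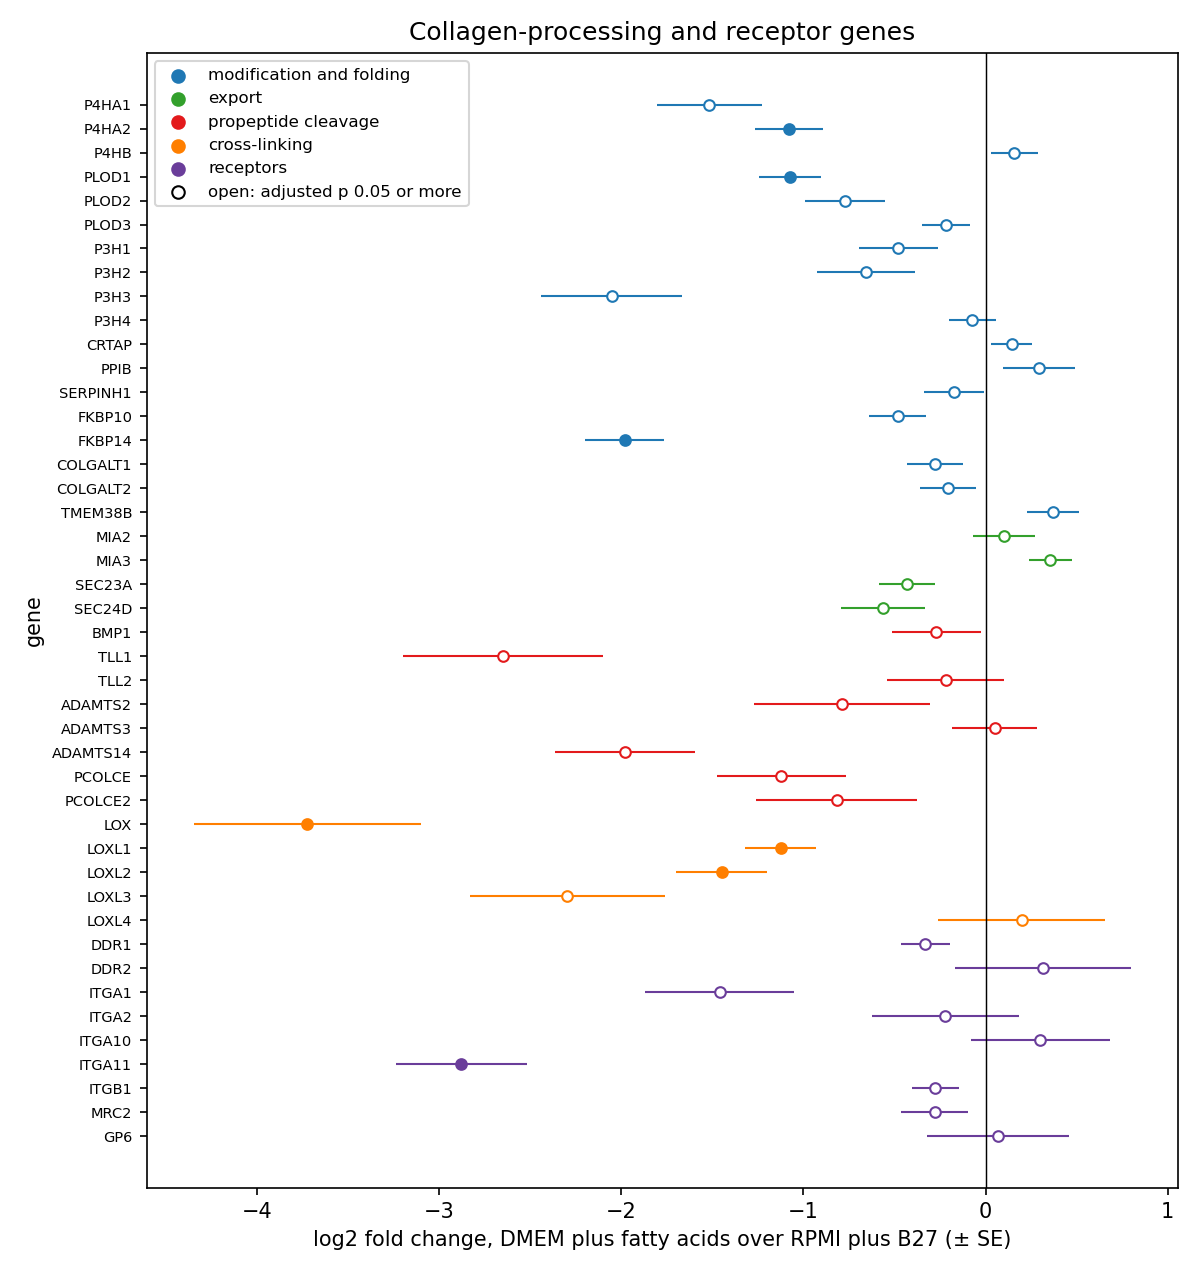
log2 fold change between media with its SE for the 44 tested genes of collagen modification, export, cleavage, cross-linking and reception, coloured by step, with filled points for an adjusted p under 0.05. The 7 filled points, from -3.72 for LOX to -1.07 for PLOD1, all lie to the left of 0.

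Other genes of stromal cells were also lower. Of 12 stromal markers 11 were lower in DMEM plus fatty acids and 5 fell (DCN, POSTN, FBN1, BGN and LOX), or 9 with the block, which adds LUM, FN1, PDGFRA and PDGFRB. Of all 16107 tested genes 7888 were lower, and 1.07% were called lower, or 3.42% with the block. The list summed to 3267.6 to 7866.9 CPM in RPMI plus B27 and 516 to 1150.8 CPM in DMEM plus fatty acids. Most of this was FN1, fibronectin, with 6838.4, 2826.6 and 2991.9 CPM against 429, 637 and 1071.5 CPM (adjusted p 0.0540). Without FN1 the sums were 276 to 1028 CPM and 79.4 to 98.0 CPM. LOX and DDR2 are in this list and in the one above. DCN, the fibroblast proteoglycan decorin, had 37.9, 22.2 and 11.6 CPM against 0, 0.602 and 0.592 CPM, the only marker of the list at 0 in a library. LUM (51.4 ± 5.67 against 6.28 ± 5.87 CPM) and POSTN (112 ± 79.0 against 14.5 ± 1.83 CPM, SD, n = 3 each) had adjusted p values of 0.0728 and 0.0446 by edgeR. PDGFRA had 72.3, 51.7 and 28.3 CPM against 23.1, 23.7 and 16.8 CPM (adjusted p 0.117), and DDR2 did not pass (0.31 ± 0.48). In bulk libraries fewer stromal cells and less collagen RNA per cell cannot be told apart, and the part of either in these results was not tested.

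Markers of other cells give the setting. As background, 1.07% of all tested genes were called lower and 0.292% higher, or 3.42% and 1.36% with the block. The 13 cardiomyocyte markers summed to 31379.4 to 36884.8 CPM and 24326.6 to 34436.5 CPM, with 0 passing (5 higher, 8 lower), while with the block MYH7 (-1.32, adjusted p 0.0359) and ACTN2 (-1.05, adjusted p 0.0494) were lower. Libraries did not overlap for 3 lower markers and 1 higher, where 12.8% of all tested genes lay in each direction. The higher 1 was MYH6 (0.86 ± 0.27, adjusted p 0.166, and 0.0797 with the block). Markers of the labelled cell type were thus abundant in both media. Smooth muscle markers summed to 1595.2 to 2096.4 CPM and 375 to 1197.9 CPM, with LMOD1 of 6 lower by the test, and CNN1 also with the block. Among endothelial markers PECAM1 and VWF were under 1 CPM in every library and CDH5 was at 0 in all 3 DMEM plus fatty acids libraries. KDR made up nearly all of the endothelial sum (30.1 to 240 CPM and 115 to 463 CPM). It was higher in DMEM plus fatty acids with the block (1.49, adjusted p 0.0245, against 0.434 without it). The other 2 tested endothelial markers, TIE1 (-0.97) and TEK (-2.13), were lower. Neither passed by edgeR (adjusted p 0.389 and 0.0960, or 0.180 and 0.0569 with the block). Of the epicardial markers, which summed to 104 to 290 CPM and 42.7 to 87.2 CPM, 0 passed, and TBX18 and KRT19 were lower with the block. Hepatic markers summed to 15.5 to 113 CPM and 7.66 to 32.7 CPM, highest in replicate 3 of both media, with AFP lower with the block (-4.09, adjusted p 0.0255), and pluripotency markers to 16.2 to 57.5 CPM and 24.3 to 61.4 CPM, with NANOG at 0 in all DMEM plus fatty acids libraries. AFP, ALB and FOXA2 of the hepatic list had 0 counts in RPMI plus B27 replicate 1, and ALB, TTR and FOXA2 in DMEM plus fatty acids replicate 1, while MSLN (epicardial) and LIN28A (pluripotent) were at 0 in some libraries. The part of these cells in the collagen results was not tested.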

How the data were processed

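Per the labels' protocols, RNA was column-purified with DNase treatment, and the mRNA kit used for the libraries keeps strand. The authors deposited raw counts per gene symbol, 1 file for each of the 6 libraries. STAR, HTSeq and the build hg38 are named in the submitters' processing notes. Their versions, the annotation and the strand setting are not given in the sources used here. The 5 summary rows of each file (12.8% to 15.6% of all counts, reads aligned to several places 3.05% to 4.10%) were left out.

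Counts were tested with edgeR 4.0.16 (R 4.3.3) over all 6 libraries: filterByExpr (minimum count 10, total 15; 16107 genes), TMM, quasi-likelihood test, Benjamini-Hochberg over all genes at 0.05. Standard errors are those implied by F. Tested chain ratios used raw counts plus 0.5, and the untested type IV ratios raw counts alone. Alternatives were DESeq2 1.42.0, other scalings and filters, the replicate block, and leaving out each library. The edgeR script was tested on simulated data. Gene loci and lengths came from GENCODE 29 (all 44 collagens matched), promoters from RefSeq (32 matched). Depth, 23232324 to 31035389 gene counts, limits genes under about 1 CPM. A count of 0 was read as up to 3 counts, and without molecular identifiers this covers counting error only.

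Every collagen row is accounted for. Library values are given for collagens called with or without the block, for 14 listed chains (COL15A1 by its range in each medium), and for the largest and smallest change of each class. COL4A3, COL4A5 and COL7A1 were given library values, and COL10A1 its range in each medium, after their values were seen. Of the processing and receptor list the called genes and the 4 with the next smallest p are named, and SERPINH1, LOXL4, ITGB1, MIA3 and TMEM38B beside them after their values were seen. Members, lists and rules were chosen with earlier results of these data known.

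Same-numbered libraries deviated together from the means of their media (r over genes 0.31, 0.43 and 0.37, against -0.24 to -0.14 for other numbers). The numbers were therefore taken to pair the libraries, although no label states what a number stands for. Deviations from the mean of a medium sum to 0, so positive r for the same numbers pushes the other r below 0. The negative values are thus no separate evidence, and the check used the same counts as the block fit.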

Additional observations from a re-analysis of the deposited data

How the results depend on the processing

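Of the 36 tested collagens under up to 12 alternatives each, 363 values kept their direction and side of the threshold, 33 lost and 18 gained a call, and 16 changed sign. None of the 16 belonged to a gene called without the block. The count over all genes was 219, and 1212 by DESeq2, 539 with no filter, 119 with at least 10 counts in every library, 770 with the replicate block and 3 to 131 without 1 library. Of those 219, 78.5% were lower, against 63.4% under total-count scaling, which moved the median over all tested genes from 0.0090 to 0.12 (log2). The count of collagens was 6, and 16, 9, 3 and 11 under the first 4 of these settings, 4 under total-count scaling and 0 to 4 without 1 library. Called fibrillar genes numbered 5, and 3 under total-count scaling, 2 with at least 10 counts in every library and 0 to 3 without 1 library. Called basement membrane genes numbered 0, and 4 by DESeq2 and 1 with the replicate block (5 at an unadjusted p under 0.05). Other collagens numbered 1, and 7 by DESeq2, 4 with no filter, 4 with the replicate block and 0 to 1 without 1 library. Processing and receptor genes numbered 7, and 15 by DESeq2, 4 under total-count scaling, 12 with no filter, 3 with at least 10 counts in every library, 13 with the replicate block and 0 to 4 without 1 library. Fits without 1 library have fewer samples, and the cause of the other changes was not tested.

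Sign changes were as follows, with the range over fits without 1 library. COL6A1 (-0.0096) had 0.11 under total-count scaling, 0.0091 with no filter, 0.060 with the replicate block and -0.18 to 0.37 without 1 library, positive without RPMI plus B27 replicate 1 (0.37) and DMEM plus fatty acids replicates 1 (0.052) and 2 (0.018). COL7A1 (0.25) ran from -0.21 to 1.07, the highest without RPMI plus B27 replicate 1, and COL9A1 (0.12) from -0.24 to 0.32. Without RPMI plus B27 replicate 1, COL11A2 had 0.055, COL13A1 0.15, COL25A1 0.36 and COL27A1 0.17, and their lowest values were -1.49, -0.30, -1.76 and -0.65. COL4A6 ran from -0.34 to 0.043. The log2 difference in COL5A2 to COL5A1 (-0.22) ran from -0.53 to 0.18. No other tested chain ratio changed sign, including within replicate pairs (replicate block, exact sign-flip test, smallest possible p 0.25). The block changed no call of a collagen other than those given beside the results.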
